A study of Mus musculus with 16 samples.

Results

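The nuclear-encoded respiratory chain genes are the subunits of complexes I to IV and of ATP synthase that are carried on chromosomes, together with cytochrome c and the assembly factors that share the Nduf and Sdh symbol stems. Members were taken by symbol: every gene starting with Nduf, Uqcr, Atp5, Sdha, Sdhb, Sdhc, Sdhd or Cox4 to Cox8, plus Cyc1 and Cycs, without symbols that contain -ps. This gave 103 of 55367 genes, of which 100 were among the 19509 genes with enough counts to be tested; Cox6a2, Cox7b2 and Cox8c were not. Sorted by role, 79 were subunits of the complexes found in most tissues, 12 were assembly factors of complexes I and II (Ndufaf1 to Ndufaf8 and Sdhaf1 to Sdhaf4) and 12 were tissue isoforms and paralogs.

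The RNA came from mIMCD3 cells, an established line from the inner medullary collecting duct of the mouse kidney, where cells live in concentrated fluid. WT cells were treated for 5 h with DMSO, the solvent, or with 10 µM sulforaphane (SFN), a compound that activates the transcription factor Nrf2. They were then kept in isosmotic medium or put under hyperosmotic stress at 600 mOsm for 1 h or 6 h. Nrf2-/- cells of the same line, made with CRISPR/Cas9, were sequenced after SFN in isosmotic medium and at 1 h. Each of these 8 conditions had 2 libraries, 16 in all. A Nrf2-/- group with DMSO and an isosmotic group matched in time to 6 h were not analysed here, and whether the knockout line is 1 clone is not given in the sources used here.

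Electrons from NADH enter the chain at complex I and those from succinate at complex II, pass through complex III, cytochrome c and complex IV to oxygen, and the proton gradient formed on the way drives ATP synthase. Each large complex is built from many small proteins made in the cytosol and imported, and complexes I, III, IV and ATP synthase also hold subunits encoded in mitochondrial DNA. Assembly factors are not part of the finished complexes: they insert cofactors and hold partly built modules together. Kidney tubule cells are rich in mitochondria, although the inner medulla works at low oxygen and relies more on glycolysis than the cortex.

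Libraries held 34484296 to 50774875 counts, of which the members took 0.950% to 1.28% in WT libraries and 0.790% and 0.825% in isosmotic Nrf2-/- libraries. The 2 libraries of Nrf2-/- cells at 1 h lay far from each other: the members took 1.14% of counts in replicate 1, within the WT range, and 0.623% in replicate 2, the lowest of all 16. The median absolute log2 difference between the 2 replicates over the members was 1.04, against 0.0467 to 0.303 in the other 7 conditions. Over all genes tested the same measure was 0.481 in this condition and 0.123 to 0.188 elsewhere. Since all libraries shared 1 estimate of the spread, results are given with and without these 2 libraries where that changed them. Short genes also shifted between libraries: genes with under 1 kb of exons deviated from their mean over libraries by a median log2 of -0.43 in Nrf2-/- 1 h replicate 2, of -0.27 and -0.24 in the 2 isosmotic Nrf2-/- libraries, of -0.24 in WT SFN isosmotic replicate 2. In the 4 libraries at 6 h they deviated by 0.35 to 0.44, and 26 of the 100 members tested are that short. Epithelial genes marked the line (Krt8 at 650 to 1109 CPM, counts scaled to library size, in every library). Aqp2, the water channel of the collecting duct, did not exceed 0.323 CPM and Umod, of the thick ascending limb, was at 0 in all 16. The 13 protein genes of mitochondrial DNA were listed at 0 throughout, so the chain is described here from its nuclear genes alone. Nfe2l2, the gene of Nrf2, was at 11.02 to 11.6 CPM in the 4 Nrf2-/- libraries and at 64.0 to 149 CPM in the 12 WT libraries.

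Per length, the subunits were among the more abundant messages and the assembly factors were rare. In unstressed DMSO cells the median level of the 79 subunits was 179 TPM (counts scaled to gene length and library size), from 3.83 TPM for Ndufb2 to 1498 TPM for Cox6a1. That of the 12 assembly factors was 25.2 TPM, from 2.24 TPM for Sdhaf1 to 93.8 TPM for Ndufaf8. The catalytic head of ATP synthase was near the top, with its beta subunit Atp5b at 1453 ± 15.5 TPM and its alpha subunit Atp5a1 at 1120 ± 20.4 TPM (SD, n = 2 here and for the levels that follow). In complex IV, Cox8a was at 1312 ± 63.1 TPM, between these 2 genes, with Cox4i1 at 764 ± 88.6 TPM and Ndufa4, once counted with complex I, at 399 ± 21.1 TPM. In complex III, Cyc1, which carries the haem that passes electrons to cytochrome c, was at 530 ± 19.9 TPM, the Rieske iron-sulfur protein Uqcrfs1 at 417 ± 36.5 TPM and the core protein Uqcrc1 at 195 ± 11.6 TPM. Cytochrome c itself, Cycs, was at 171 ± 2.03 TPM, close to Cox7a2l, a factor of supercomplexes, at 178 ± 12.8 TPM. At the entry points of electrons, Ndufv1, which binds NADH, was at 219 ± 10.4 TPM and Ndufs1, the largest core subunit of complex I, at 46.5 ± 1.88 TPM. In complex II the flavoprotein Sdha was at 145 ± 3.41 TPM and its iron-sulfur partner Sdhb at 137 ± 2.60 TPM. Cycs and Cox7a2l, neighbours in this order, lay within their spread of each other. Isoforms of other tissues were near the floor: Cox7a1 of muscle was at 3.06 ± 0.154 TPM, Cox4i2 of lung at 0.585 ± 0.231 TPM and Ndufa4l2, known from hypoxia, at 0.0759 ± 0.107 TPM. Between the highest and the lowest WT condition mean, subunit levels in TPM differed by a median ratio of 1.29 (1.08 to 1.75 over 79 genes). Assembly factor levels differed by a median ratio of 2.19 (1.23 to 4.68 over 12 genes).

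**Figure D1:**
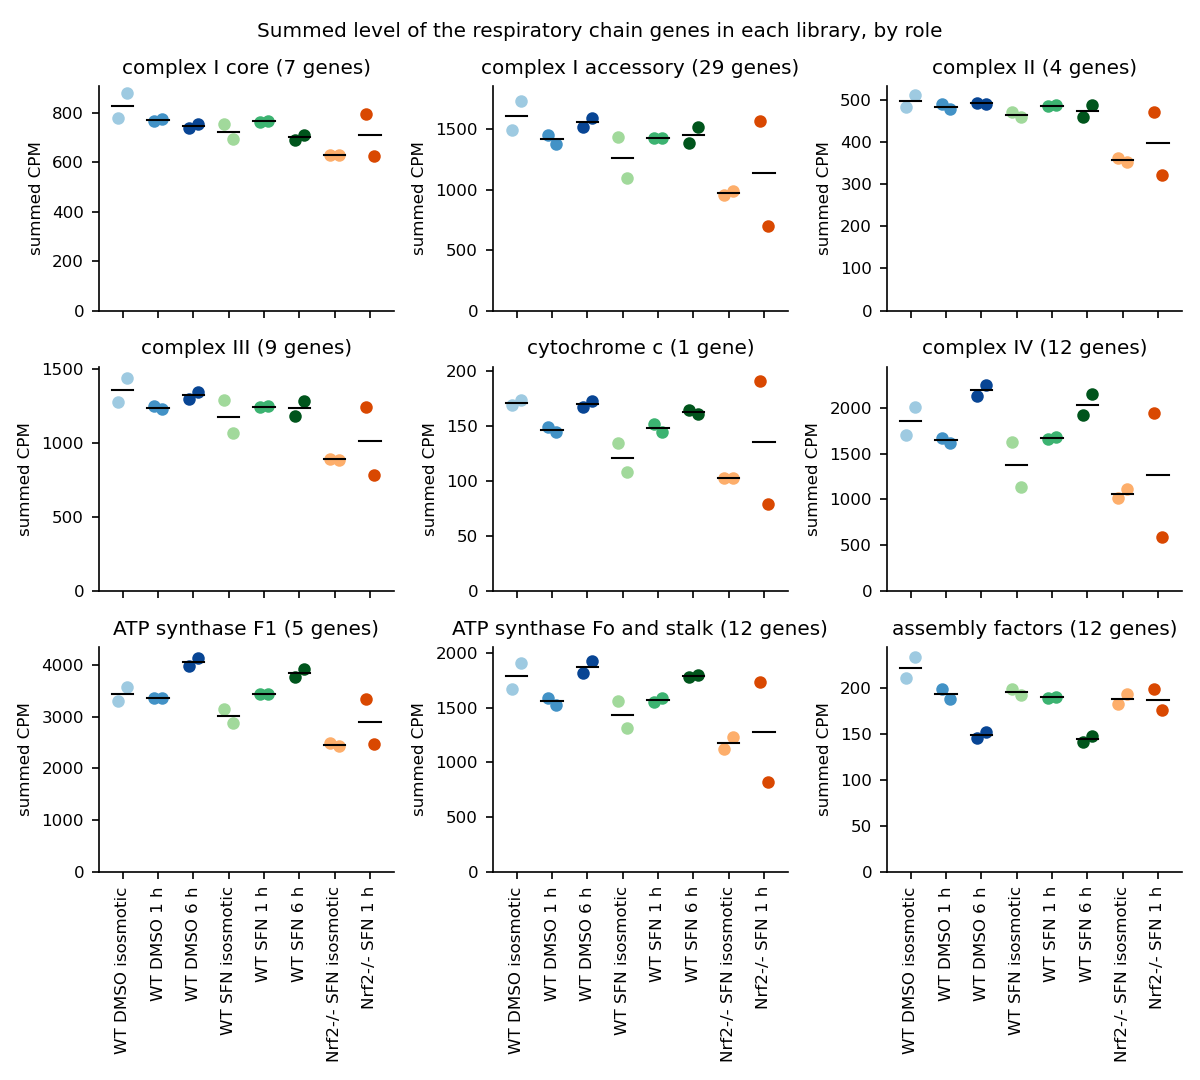
Summed CPM of the members of each role (y axis, linear from 0) in each of the 16 libraries, with 2 points and a black bar for the mean in each of the 8 conditions (x axis); tissue isoforms and paralogs are not drawn. The 12 assembly factors sum to 146 and 152 CPM at 6 h in DMSO and 141 and 148 CPM at 6 h in SFN, below the 188 to 234 CPM of the other 8 WT libraries. No panel of a complex shows such a step down at 6 h in both series, that of ATP synthase F1 is higher there than in the other WT libraries, and the 2 Nrf2-/- libraries at 1 h lie far apart.

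The first question was what happened to the chain under stress. At 6 h most assembly factors fell, while most subunits did not pass the test. In DMSO cells 9 of 12 assembly factors were lower at 6 h than in isosmotic medium and 0 were higher (median log2 change -0.68), and in SFN cells 8 of 12 were lower and 0 higher (median -0.60). Of the 79 subunits, 2 were lower and 0 higher in DMSO cells (median 0.02, range -0.67 to 0.38), and 1 was lower and 1 higher in SFN cells (median 0.26, range -0.43 to 0.88). Over all 100 members, 3 were called higher and 11 lower in DMSO cells, where 23.9% and 22% of all genes tested were called in these directions. In SFN cells 4 were higher and 9 lower, where 24.7% and 22.9% were. The median log2 change over all genes was 0.05 and 0.09. In both series the share of members called in this fit thus lay below that of all genes in each direction, and the members called lower were mostly assembly factors. With the size factors of DESeq2 in place of TMM the split was 5 higher and 9 lower in DMSO cells and 7 higher and 8 lower in SFN cells, with 8 and 7 of 12 assembly factors lower. Calls are edgeR quasi-likelihood tests at a Benjamini-Hochberg adjusted p below 0.05 over all genes tested. The DMSO and SFN series have no library in common. In them 9 of 100 members were lower in both, against 18.2% of all genes tested: Ndufaf1, Ndufaf3, Ndufaf4, Ndufaf6, Ndufaf7, Sdhaf1, Sdhaf2, Sdhaf3 and Ndufv2. These were 81.8% of the 11 members lower in DMSO cells and 100% of the 9 in SFN cells. Over all genes tested, 3545 were lower in both, of 4293 lower in DMSO cells and 4464 lower in SFN cells.

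**Figure D2:**
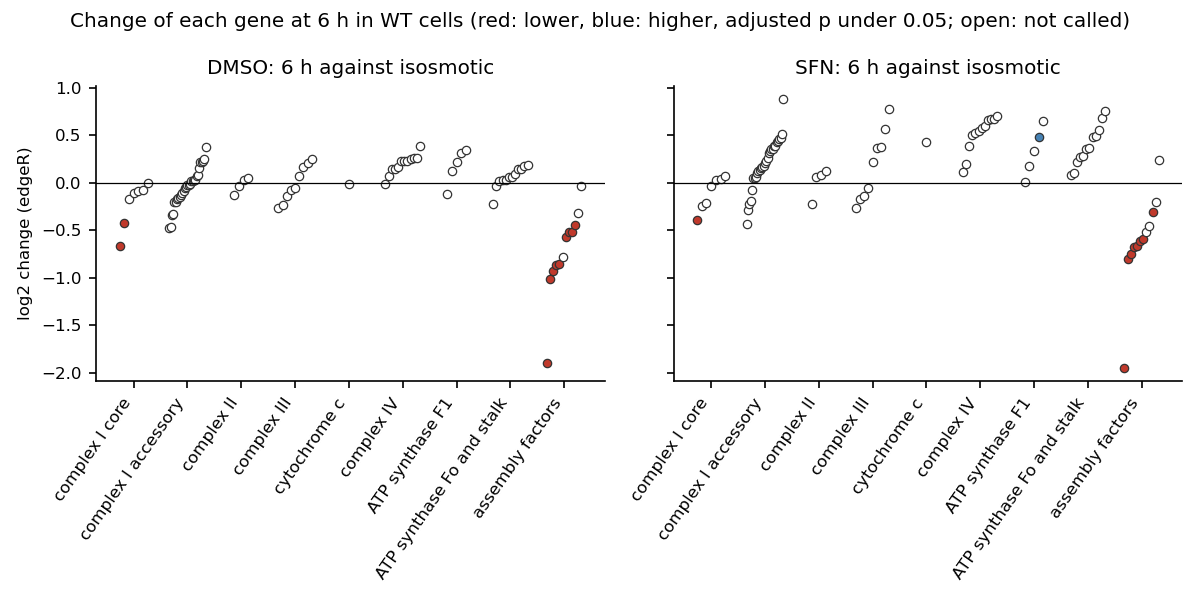
Fitted log2 change at 6 h against isosmotic medium (y axis) of each of the 79 subunits and 12 assembly factors, by role (x axis), in DMSO cells (left) and SFN cells (right); filled points passed the adjusted p threshold, red lower and blue higher, and open points did not. Red points gather in the column of the assembly factors, with 9 in DMSO and 8 in SFN cells, against 2 and 1 among all subunits.

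Ndufaf7, a methyltransferase that acts early in complex I assembly (chr17:78937136-78948052, plus strand, GRCm38), had the lowest adjusted p of the members that fell in DMSO cells. It was at 22.1 and 25.0 CPM in isosmotic DMSO cells, 24.5 and 23.5 CPM at 1 h and 11.4 and 11.9 CPM at 6 h. In SFN cells it was at 22.8 and 20.7 CPM, then 19.9 and 19.9 CPM, then 13.7 and 13.5 CPM. All 4 libraries at 6 h thus lay below all 8 other WT libraries. The log2 change at 6 h was -1.02 in DMSO cells (SE 0.138, edgeR adjusted p = 3.27e-05) and -0.68 in SFN cells (SE 0.137, edgeR adjusted p = 0.000965).

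Ndufaf1, which joins the membrane arm of complex I during assembly (chr2:119655446-119662827, minus strand), was at 16.8 and 19.9 CPM in isosmotic DMSO cells, 14.6 and 15.4 CPM at 1 h and 9.27 and 11.02 CPM at 6 h. In SFN cells it was at 14.2 and 14.8, 16.3 and 14.6, and 9.60 and 7.07 CPM. Its log2 change was -0.85 in DMSO cells (SE 0.165, edgeR adjusted p = 0.000687) and -0.80 in SFN cells (SE 0.167, edgeR adjusted p = 0.00117), with no overlap between the 6 h libraries and the rest. Ndufaf3 and Ndufaf4, partners in the same early step, both fell as well. Ndufaf4 (chr4:24898083-24905001, plus strand) went from 32.1 and 34.5 CPM to 21.8 and 24.8 CPM in DMSO cells and from 31.2 and 33.7 CPM to 20.5 and 20.3 CPM in SFN cells, with log2 changes of -0.51 and -0.67. Here the 1 h libraries lay between, at 24.4 to 29.3 CPM, and their range touched that at 6 h. Ndufaf3 had log2 changes of -0.44 in DMSO cells and -0.61 in SFN cells, and its exons overlap Impdh2 on the other strand, so that without a statement on strand its reads cannot be fully told from those of Impdh2. Ndufaf6 fell by 0.58 and 0.59 on the log2 scale. The complex I factors that did not pass in either series were Ndufaf2, Ndufaf5 and Ndufaf8, of which Ndufaf5 nevertheless had all 4 libraries at 6 h (9.91 to 10.8 CPM) below the other 8 WT libraries (11.7 to 14.3 CPM).

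The complex II factors moved the same way. Sdhaf3, which protects the iron-sulfur subunit Sdhb with Sdhaf1 (chr6:6956004-7042979, plus strand), was at 5.50 and 5.84 CPM in isosmotic DMSO cells and at 2.72 and 3.21 CPM at 6 h. In SFN cells it was at 3.08 and 5.69 CPM and then 2.58 and 2.68 CPM. The isosmotic SFN libraries differed from each other here, and replicate 1 was close to the 6 h level. The log2 change was -0.93 in DMSO cells (SE 0.250, edgeR adjusted p = 0.00687) and -0.75 in SFN cells (SE 0.253, edgeR adjusted p = 0.0249). Sdhaf4, which binds the flavin-loaded Sdha, was at 8.50 and 10.5 CPM in isosmotic DMSO cells and 5.10 and 5.28 CPM at 6 h, a log2 change of -0.87 (SE 0.270, edgeR adjusted p = 0.0163). In SFN cells it did not pass. Sdhaf2, which helps attach the flavin to Sdha, fell by 0.52 in DMSO and by 0.30 in SFN cells on the log2 scale. Sdhaf1, named after its values were seen because its mean count was under 50, held 73 and 69 counts in isosmotic DMSO cells, 49 and 31 at 1 h and 12 and 17 at 6 h. The SFN series held 78 and 66, 27 and 66, and 11 and 17 counts. It had log2 changes of -1.90 and -1.95, which rest on few counts. In all, 8 of 12 assembly factors (Ndufaf1, Ndufaf3, Ndufaf5, Ndufaf6, Ndufaf7, Sdhaf1, Sdhaf2 and Sdhaf4) had no overlap between the 4 libraries at 6 h and the other 8 WT libraries, all of them below. Over all genes tested, 22.4% lay below in this way and 22% above, and of the 79 subunits 4 lay below and 4 above.

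**Figure D3:**
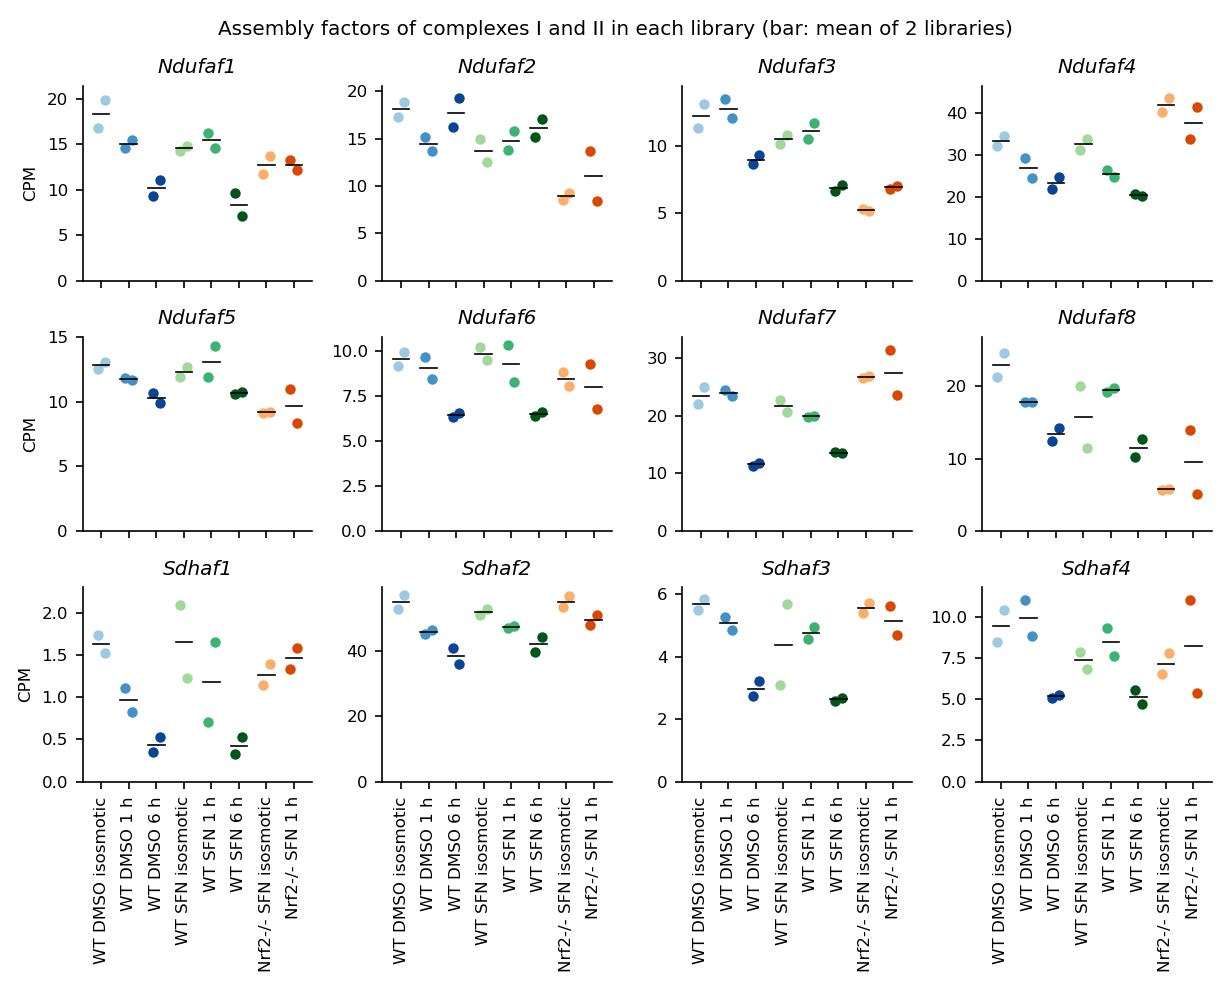
CPM (y axis, linear from 0, scaled for each gene) of the 12 assembly factors in each library, with 2 points and a bar for the mean in each of the 8 conditions (x axis). In 8 of the 12 panels both pairs of dark points at 6 h lie below every other WT point. The Nrf2-/- points of Ndufaf4 and Ndufaf7 reach above the isosmotic WT points but overlap their range, and those of Ndufaf3 lie below them.

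In the fit over all 16 libraries, fewer members were called at 6 h against 1 h than against isosmotic medium, an order that changed in other settings. In DMSO cells 0 members were higher and 7 lower at 6 h than at 1 h, where 20.4% and 22% of all genes were called, and in SFN cells 0 were higher and 10 lower, where 20.9% and 21.7% were. With the size factors of DESeq2 the splits were 1 higher and 6 lower and 2 higher and 9 lower. Ndufaf7 (-1.05), Sdhaf4 (-0.94), Sdhaf3 (-0.77), Ndufaf1 (-0.57) and Ndufaf3 (-0.51) led the named log2 changes in DMSO cells, and Ndufaf1 (-0.89), Sdhaf3 (-0.85), Sdhaf4 (-0.72), Ndufaf3 (-0.69) and the small complex I subunit Ndufv3 (-0.58) those in SFN cells. These counts rest on few libraries: leaving out 1 library left 1 to 4 of 7 calls in DMSO cells and 3 to 5 of 10 in SFN cells, all of them lower, where 28.6% to 29.5% and 28.6% to 29.9% of all genes were called in either direction. Leaving out the 2 Nrf2-/- libraries at 1 h gave 19 higher and 11 lower in DMSO cells (53.5% of all genes in either direction) and 11 higher and 17 lower in SFN cells (53.9%). The difference of the 6 h effect between SFN and DMSO cells was tested directly and was called for 0 members (0.759% of all genes were called; 1 member had an unadjusted p below 0.05 in edgeR).

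Both the assembly factor and the subunit counts at 6 h moved with the libraries used. Leaving out the 2 Nrf2-/- libraries at 1 h lowered the standard error of the log2 change, for Atp5b in SFN cells from 0.140 to 0.0675. In that fit 11 of 12 assembly factors were lower in DMSO cells and 10 of 12 in SFN cells. The subunit calls rose to 3 higher and 11 lower in DMSO cells and to 26 higher and 8 lower in SFN cells. Over all members this was 6 higher and 22 lower (28% and 28.7% of all genes) and 30 higher and 18 lower (29.6% and 28.8%). With the trend of each library on gene length and GC content removed and its median over all genes kept (added once the data had been seen), 10 and 9 of 12 assembly factors were lower. The subunits were then 2 higher and 12 lower in DMSO cells (median log2 change -0.06) and 3 higher and 9 lower in SFN cells (median 0.11). Over all members this was 5 higher and 22 lower (26.6% and 22.9% of all genes) and 6 higher and 18 lower (27.3% and 23.4%). Which subunits were called at 6 h, and in which direction, thus depended on the setting, whereas under each of these settings 0 assembly factors were higher. In the count of 14 members called in DMSO cells, leaving out 6 h replicate 1 gave 5 (31.9% of all genes called in either direction), of which 3 were assembly factors. Leaving out 6 h replicate 2 or isosmotic replicate 2 gave 9 each (33.5% and 31.7%), with 6 assembly factors. In SFN cells 4 assembly factors were called lower without 6 h replicate 1 and 6 when any 1 of the other 3 libraries compared was left out.

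Among the subunits, Ndufv2 and Ndufs3 of the complex I core were the 2 called lower at 6 h in DMSO cells, and Ndufv2 the 1 in SFN cells. Ndufv2, an iron-sulfur subunit next to the NADH site (chr17:66078638-66101559, minus strand), was at 61.9 and 76.6 CPM in isosmotic DMSO cells, 60.03 and 59.3 CPM at 1 h and 40.3 and 47.0 CPM at 6 h. In SFN cells it was at 64.3 and 57.0, 61.0 and 59.5, and 48.2 and 44.0 CPM. Its log2 change was -0.67 in DMSO cells (SE 0.129, edgeR adjusted p = 0.000695) and -0.39 in SFN cells, and its 6 h libraries lay below all others of WT cells. Ndufs3, a core subunit of the arm that reaches towards quinone, had a log2 change of -0.43 in DMSO cells (edgeR adjusted p = 0.0301) and did not pass in SFN cells; its exons overlap Kbtbd4 on the other strand. The acyl carrier protein Ndufab1 and Uqcrfs1 also had all 4 libraries at 6 h below the other 8 WT libraries, without passing the test in either series. In the other direction Atp5b, the catalytic beta subunit of ATP synthase (chr10:128083273-128090391, plus strand), was at 1752 and 1861 CPM in isosmotic DMSO cells and 2248 and 2324 CPM at 6 h. The SFN series gave 1679 and 1470 CPM and then 2150 and 2234 CPM. It rose by a log2 change of 0.48 in SFN cells (SE 0.140, edgeR adjusted p = 0.0115); in DMSO cells the change was 0.34 (edgeR adjusted p = 0.0599). Cox6a1, Cox7a2 and Uqcrh likewise had every library at 6 h above the other 8 WT libraries and were not called. The 95% interval of the change lay within 2-fold in both directions for 57 of 79 subunits in DMSO cells and 48 of 79 in SFN cells. It lay within 1.5-fold for 26 in each series. For subunits outside the 2-fold bound a 2-fold change still lay within the interval. The median half-width on the log2 scale was 0.56 for the subunits in each series and 0.37 for the assembly factors, so the subunits were measured less precisely.

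Among the subunits named by rule, none of the following passed. At 6 h in DMSO cells the log2 change and its 95% interval were 0.00 (-0.18 to 0.18) for Ndufs1, -0.03 (-0.28 to 0.22) for Sdha, -0.13 (-0.35 to 0.08) for Sdhb, -0.05 (-0.26 to 0.15) for Uqcrc1, -0.01 (-0.59 to 0.57) for Cycs and 0.12 (-0.06 to 0.30) for Atp5a1. Complex IV had wider intervals, 0.25 (-0.56 to 1.05) for Cox4i1 and 0.26 (-1.05 to 1.58) for Cox8a, both of which differed between the Nrf2-/- libraries at 1 h. Cyc1 had 319 and 352 CPM in isosmotic DMSO cells and 281 and 289 CPM at 6 h, a change of -0.23 (-0.48 to 0.01) that did not pass.

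Libraries at 6 h differed in other ways that were measured alongside. Genes under 1 kb had a median log2 change of 0.31 in DMSO and 0.55 in SFN cells, over 2471 genes. The summed level of 14 markers of fibroblasts, endothelium and leukocytes was 18.7 to 20.7 CPM at 6 h and 5.88 to 8.98 CPM in the other WT libraries, with 6 of the 9 tested called higher in each series. The 17 collecting duct and epithelial markers summed to 4524 to 4908 CPM at 6 h and 2117 to 3252 CPM in the rest. The 6 markers of proximal tubule and thick limb summed to 21.3 to 27.6 CPM at 6 h and 9.06 to 12.7 CPM in the other WT libraries, with 3 of 3 tested called higher in DMSO cells and 2 in SFN cells. Over all genes tested, 23.9% were called higher in DMSO cells and 24.7% in SFN cells. The part of the marker shifts in the members' changes was not tested, and that of gene length only through the trend removal given above. In bulk RNA from a culture, fewer cells of a kind and less RNA per cell cannot be told apart.

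Other genes of the same machinery were read from lists by function. Of 35 assembly factors outside the symbol rule, most of them for complexes III and IV and ATP synthase, 32 were tested. At 6 h 1 was higher and 19 were lower in DMSO cells (median log2 change -0.48) and 1 higher and 19 lower in SFN cells (median -0.47). Over all genes tested, 23.9% were higher and 22% lower in DMSO cells, and 24.7% and 22.9% in SFN cells. The summed level of the 35 was 1041 and 1092 CPM in isosmotic DMSO cells and 714 and 728 CPM at 6 h. In SFN cells it was 981 to 1043 CPM and then 709 and 712 CPM. Taco1, an activator of the translation of the mitochondrial Cox1 message, was at 16.8 and 16.7 CPM in isosmotic DMSO cells and 6.11 and 4.85 CPM at 6 h, with log2 changes of -1.61 and -1.76 in DMSO and SFN cells. Tmem70, a factor of ATP synthase assembly, changed by -1.56 and -1.14, the copper protein Cox19 by -1.52 and -1.36, and Atpaf1, a chaperone of the F1 beta subunit, by -1.04 and -1.32. Cox18, which inserts a complex IV subunit into the membrane, was the single gene of the list that was higher at 6 h in both, by 0.73 and 0.62. The copper chaperone Cox17 followed another course: it was at 6.62 and 5.64 CPM in isosmotic DMSO cells, 0.973 and 0.901 CPM at 1 h and 5.85 and 7.75 CPM at 6 h. Its log2 change at 1 h was -2.70 in DMSO cells (edgeR adjusted p = 4.23e-06), -3.18 in SFN cells (edgeR adjusted p = 2.33e-06) and -2.61 in Nrf2-/- cells (edgeR adjusted p = 8.24e-06). Cox17 was thus low at 1 h in all 3 series and back at its isosmotic level at 6 h in both WT series.

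Regulators of mitochondrial gene expression changed in both directions. Of 14 tested, 6 were higher and 4 lower at 6 h in DMSO cells and 5 higher and 4 lower in SFN cells. Over all genes tested, 23.9% were higher and 22% lower in DMSO cells, and 24.7% and 22.9% in SFN cells. Ppargc1a, the coactivator known to drive mitochondrial biogenesis, was at 1.60 and 1.53 CPM in isosmotic DMSO cells and 6.46 and 7.16 CPM at 6 h, with log2 changes of 2.12 and 2.30 in DMSO and SFN cells. Yy1 rose by 1.47 and 1.18 and Gabpa, the ETS protein of nuclear respiratory factor 2, by 0.65 and 0.62. Tfb1m, which modifies the mitochondrial ribosomal RNA, fell by 2.04 and 1.96, Tfam, which packages mitochondrial DNA, by 0.50 and 0.45, and Nrf1, the nuclear respiratory factor 1 gene, by 0.27 and 0.37. Of 16 genes of pyruvate dehydrogenase and the citric acid cycle, 0 were higher and 4 lower at 6 h in DMSO cells and 1 higher and 5 lower in SFN cells. The same shares of all genes apply here. Whether either of these small lists differs from all genes was not tested.

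At 1 h the members called were tissue isoforms and paralogs. In DMSO cells 3 members were higher and 0 lower, where 7.1% and 4.11% of all genes were called. In SFN cells 2 were higher and 0 lower, where 5.94% and 3.58% were. In Nrf2-/- cells 2 were higher and 0 lower, where 4.36% and 2.81% were. No subunit or assembly factor passed in these comparisons, and the members' median log2 change was -0.17, 0.17 and 0.19. This depended on the setting: without the Nrf2-/- libraries at 1 h, 6 subunits and 2 assembly factors were lower in DMSO cells (22.1% of all genes called in either direction) and 3 subunits were higher and 1 assembly factor lower in SFN cells (17.5%). With the length and GC trend removed, 25 subunits and 5 assembly factors were lower in DMSO cells (28.6%) and 8 and 1 in SFN cells (21.4%), but with the median over all genes kept 1 and 0 in DMSO cells and 0 and 0 in SFN cells. Leaving out 1 library gave 1 or 2 calls in each WT series (4.45% to 5.94% and 3.33% to 4.67% of all genes). The genes called had very few counts, so the counts themselves are given, and apart from Cox4i2 and Cox7a1 they were named after their values were seen. Of all counts from 1 to 10 in a library, 58% to 68.5% were even. Whether the 2 reads of a pair were counted separately was not tested. Cox6b2, the testis form of a complex IV subunit (chr7:4751792-4753094, minus strand), had 0 counts in all 4 isosmotic WT libraries, 43 and 29 at 1 h in DMSO cells, and 16 and 25 at 1 h in SFN cells. It had 15 and 8 at 6 h in DMSO cells and 21 and 22 at 6 h in SFN cells. In Nrf2-/- cells it had 2 and 0 counts in isosmotic medium and 26 and 15 at 1 h. It was therefore present in every stressed library and at or near 0 in every isosmotic one, and it was called higher at 1 h in all 3 series (edgeR adjusted p = 0.00123, 0.0033 and 0.0163). Like Cox8b and Ndufa11b below, it passed the low-count filter only through stressed libraries. A call against isosmotic medium could thus go in this direction alone, and the calls add nothing to the counts. Cox8b, the heart and muscle form of another subunit, had 0 counts in isosmotic WT cells, 3 and 15 at 1 h in DMSO and 17 and 11 at 1 h in SFN cells, and 0 to 2 at 6 h. Ndufa11b, annotated as a processed pseudogene of complex I and lying 4241 bp downstream of the end of Senp2, had 0 to 6 counts in isosmotic libraries, 32 and 35 at 1 h in DMSO cells and 42 and 33 at 6 h in SFN cells. Its fitted level in SFN cells was 0.70 times that in DMSO cells at 1 h and 2.51 times at 6 h, and neither difference passed.

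The isoforms named by rule were as low. Cox4i2, the oxygen-sensitive isoform of Cox4i1, had 4 and 8 counts in isosmotic DMSO cells, 17 and 9 at 1 h and 35 and 16 at 6 h. The SFN series had 4 and 8, 12 and 14, and 27 and 36 counts. It was called higher at 6 h in both series (log2 change 2.44 and 2.85, edgeR adjusted p = 0.00697 and 0.00241). Its isosmotic WT libraries held 4 to 8 counts, so a call lower at 6 h could hardly have been made. The calls thus add nothing to the counts. Its levels remained far below those of its partner isoform Cox4i1 (2.96 against 821 TPM at 6 h in DMSO cells). Ndufa4l2 had 0 to 2 counts in isosmotic WT libraries, 7 to 15 at 1 h and 0 to 4 at 6 h and was not called. Cox7a1 had 7 and 4 counts in isosmotic Nrf2-/- cells and 35 and 19 at 1 h, and was called higher there (edgeR adjusted p = 0.0262). It lies 1820 bp downstream of the end of Gm5113, which held 3541 counts over all 16 libraries. With at least 10 counts asked of every library, these genes left the test and 0 members were called at 1 h in any series.

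**Figure D4:**
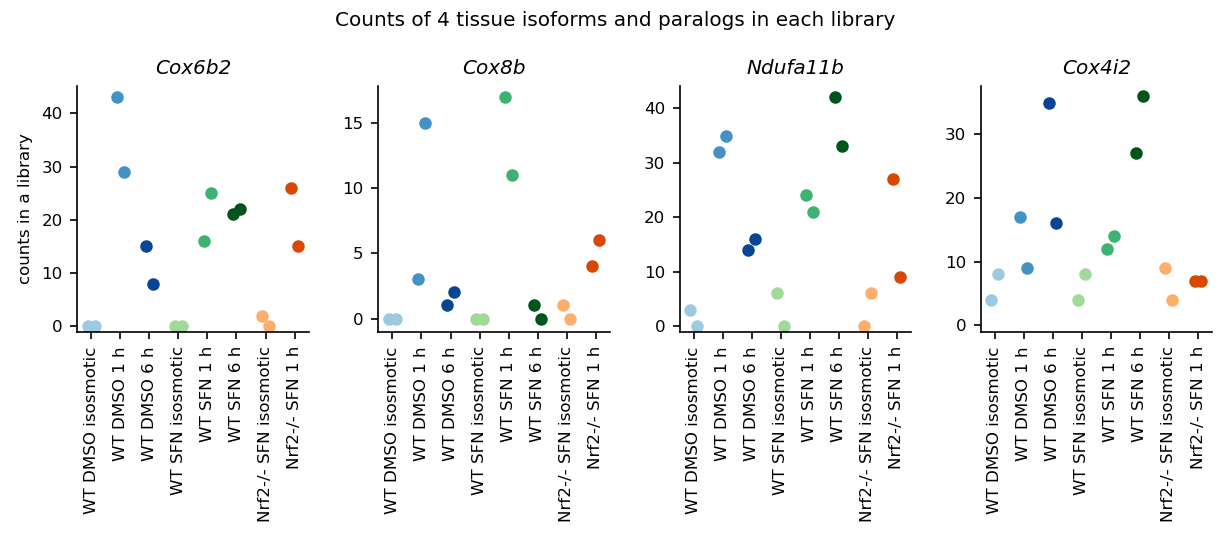
Counts per library (y axis, linear, not scaled for depth) of Cox6b2, Cox8b, Ndufa11b and Cox4i2 in the 8 conditions (x axis), with 1 point for each of the 2 libraries. Cox6b2 has 0 counts in the 4 isosmotic WT libraries and 8 to 43 in the 8 stressed WT libraries, Cox8b has its highest counts at 1 h, and Cox4i2 reaches 35 and 36 counts at 6 h.

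The next question was what SFN did on its own. Between SFN and DMSO cells 0 of 100 members were called in isosmotic medium (2.84% of all genes), 0 at 1 h (0.0923%) and 0 at 6 h (0.041%). In the same order 4, 0 and 1 members had an unadjusted p below 0.05 in edgeR, and DESeq2 called 1 member in isosmotic medium. The subunits' median log2 change in isosmotic medium was -0.31, with 2 of 79 above 0. The 2 isosmotic SFN libraries differed, however: Cox8a was at 214 and 109 CPM, Uqcr11, a small subunit of complex III, at 70.7 and 29.2 CPM, and Ndufs6, an accessory subunit with a zinc site, at 48.8 and 20.7 CPM, each lower in replicate 2. Without the Nrf2-/- libraries at 1 h, and hence with a smaller estimate of the spread, 1 member was higher and 27 were lower in isosmotic SFN cells (7.2% and 7.3% of all genes). Among these were Atp5b at a log2 change of -0.20 and Cox4i1 at -0.42. At 1 h the 2 treatments were close, with the 95% interval of the difference within 2-fold for 64 of 79 subunits, and for 60 of 79 at 6 h and 46 of 79 in isosmotic medium. The difference of the 1 h effect between SFN and DMSO cells was called for 0 members (0.559% of all genes; 1 member at an unadjusted p below 0.05 in edgeR).

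The last question was whether cells without Nrf2 differ. Under SFN in isosmotic medium, Nrf2-/- cells had 1 member higher and 17 lower than WT cells, where 15.7% and 18.4% of all genes were called; the members' median log2 difference was -0.36 and that of all genes 0.00. With the size factors of DESeq2 the split was 4 higher and 16 lower. The lower genes were 13 of 79 subunits, spread over complexes I, II, III and ATP synthase, and 4 of 12 assembly factors. No complex IV subunit was called, which does not set this complex apart. Against the WT SFN mean, its median log2 difference was -0.50 and -0.30 in the 2 isosmotic Nrf2-/- libraries. Of its 12 subunits 9 lay below in each, and the median of complex II was -0.36 and -0.39. At 1 h 4 members were higher and 13 lower, where 15.3% and 16.2% of all genes were called. Lower in both were 12 of 100 members, against 13% of all genes tested: Atp5c1, Atp5g2, Atp5pb, Ndufa6, Ndufa8, Ndufaf3, Ndufaf5, Ndufaf8, Ndufb10, Ndufs3, Ndufs7 and Uqcrfs1. These were 70.6% of the 17 members lower in isosmotic medium and 92.3% of the 13 at 1 h. Over all genes tested, 2538 were lower in both, of 3584 lower in isosmotic medium and 3163 lower at 1 h. In this fit the shares of members lower in each comparison and in both were thus below those of all genes. Without the 2 Nrf2-/- libraries at 1 h this reversed in isosmotic medium, where 50% of members and 24.6% of all genes were lower. The 6 proximal tubule and thick limb markers summed to 2.50 to 3.44 CPM in isosmotic Nrf2-/- cells and 9.71 to 12.7 CPM in WT SFN cells, with 1 of 3 tested called lower, and their part in the result was not tested. With a single knockout line, the deletion and the line cannot be told apart.

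Atp5g2, a gene of the c subunit that forms the rotor ring of ATP synthase (chr15:102662864-102672352, minus strand), was among the subunits that separated the genotypes. It was at 209 to 246 CPM in the 12 WT libraries, with a median of 225 CPM, and at 92.9 and 96.7 CPM in isosmotic Nrf2-/- cells and 135 and 72.7 CPM at 1 h. Every Nrf2-/- library lay below every WT library, although the pair at 1 h differed. The log2 difference was -1.19 in isosmotic medium (SE 0.190, edgeR adjusted p = 0.000202) and -1.12 at 1 h (SE 0.190, edgeR adjusted p = 0.000382). The other c subunit gene among the most abundant, Atp5g3, had 251 and 210 CPM in isosmotic WT SFN cells and 137 and 161 CPM in Nrf2-/- cells and did not pass.

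In complex I, Ndufa6, an accessory subunit that binds the acyl carrier protein, was at 31.0 to 47.0 CPM in WT libraries and 11.7 to 25.1 CPM in Nrf2-/- libraries. Its log2 differences were -1.09 (SE 0.262, edgeR adjusted p = 0.00502) and -1.04 (SE 0.262, edgeR adjusted p = 0.00777). Ndufb10, of the membrane arm, was at 45.5 to 62.9 CPM against 23.6 to 40.98 CPM, with log2 differences of -1.06 and -0.75. Ndufa8 had a log2 difference of -0.90 at 1 h. These subunits thus sat at lower levels in each Nrf2-/- condition, and for Ndufa6 and Ndufb10 the genotypes did not overlap. Over the 79 subunits, 8 had all 4 Nrf2-/- libraries below all 12 WT libraries (Atp5c1, Atp5g2, Atp5pb, Ndufa6, Ndufb10, Ndufs3, Ndufs7 and Uqcrfs1) and 0 had them above, where 9.83% and 10.4% of all genes tested did. Of the 12 assembly factors, 0 were separated in either direction.

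Assembly factors divided between the directions. Ndufaf8, the partner of Ndufaf5, was at 20.1 and 11.5 CPM in isosmotic WT SFN cells and 5.75 and 5.80 CPM in Nrf2-/- cells (log2 difference -1.45, SE 0.350, edgeR adjusted p = 0.00557). Its Nrf2-/- libraries at 1 h were at 14.0 and 5.16 CPM (log2 difference -1.02). Ndufaf3 was at 10.1 and 10.8 CPM in WT and 5.32 and 5.16 CPM in Nrf2-/- cells (log2 difference -0.996, SE 0.148, edgeR adjusted p = 0.000103). Ndufaf4 was the single member that was higher in isosmotic medium, at 31.2 and 33.7 CPM in WT and 40.1 and 43.6 CPM in Nrf2-/- cells (log2 difference 0.37, SE 0.130, edgeR adjusted p = 0.0420). This call was lost with the length and GC trend removed, where the difference was -0.04, or -0.14 with the median over all genes kept. At 1 h Ndufaf4 (0.56), Ndufaf7 (0.47), Ndufv2 (0.45) and Cox7a2l (0.43) were higher on the log2 scale. Of these Cox7a2l alone was still called with the trend removed and the median over all genes kept, and Ndufaf3 at 1 h was no longer called lower there (edgeR adjusted p = 0.0518).

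The genes named by rule that were called lower in isosmotic Nrf2-/- cells were Uqcrfs1 (log2 difference -0.57, 95% confidence interval -0.81 to -0.32), Ndufv1 (-0.55, -0.86 to -0.25), Uqcrc1 (-0.41, -0.62 to -0.21), Sdha (-0.40, -0.65 to -0.15) and Sdhb (-0.38, -0.59 to -0.16). Ndufs1 did not pass, at 0.11 (-0.07 to 0.29), nor did Cycs, at -0.24 (-0.83 to 0.35), Cox4i1, at -0.54 (-1.35 to 0.27), or Atp5a1, at -0.23 (-0.41 to -0.04, edgeR adjusted p = 0.0546). Both catalytic subunits of complex II were thus called lower, and in complex I Ndufv1 was while Ndufs1 was not. With the length and GC trend removed and the median over all genes kept, Sdhb, Uqcrc1 and Ndufaf4 were no longer called.

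The libraries set limits to these differences. Against the mean of the matched WT SFN libraries, the median log2 difference of the 79 subunits was -0.39 and -0.36 in the 2 isosmotic Nrf2-/- libraries (60 and 59 of 79 below). At 1 h it was 0.10 in replicate 1 (48 of 79 above) and -0.97 in replicate 2 (75 of 79 below). Without 1 h replicate 1 the comparison at 1 h called 2 members higher and 72 lower (19.4% and 22.5% of all genes), and without 1 h replicate 2 it called 23 higher and 9 lower (14.1% and 14.7%). With the 4 libraries compared alone 0 members were called (4.6% and 5.49% of all genes higher and lower). No direction of the subunits as a group at 1 h can be read from these 2 libraries. The change from isosmotic medium to 1 h within Nrf2-/- cells behaved alike, with 1 higher and 42 lower without replicate 1 (12.6% and 11.3%) and 68 higher and 0 lower without replicate 2 (12.9% and 8.7%). The difference of the 1 h effect between the genotypes was called for 0 members (0.123% of all genes; 1 member at an unadjusted p below 0.05 in edgeR). In isosmotic medium, where the 2 Nrf2-/- libraries lay close together, leaving out both libraries at 1 h raised the calls to 6 higher and 50 lower (21.8% and 24.6% of all genes). Leaving out either isosmotic Nrf2-/- library left 10 (23.0% and 21.6% of all genes called) and leaving out WT SFN isosmotic replicate 1 left 8 (21.1%). Members under 1 kb had a median log2 difference of -0.52 and members over 4 kb of -0.28 in isosmotic medium, against 0.00 and 0.03 for all genes of these lengths.

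**Figure D5:**
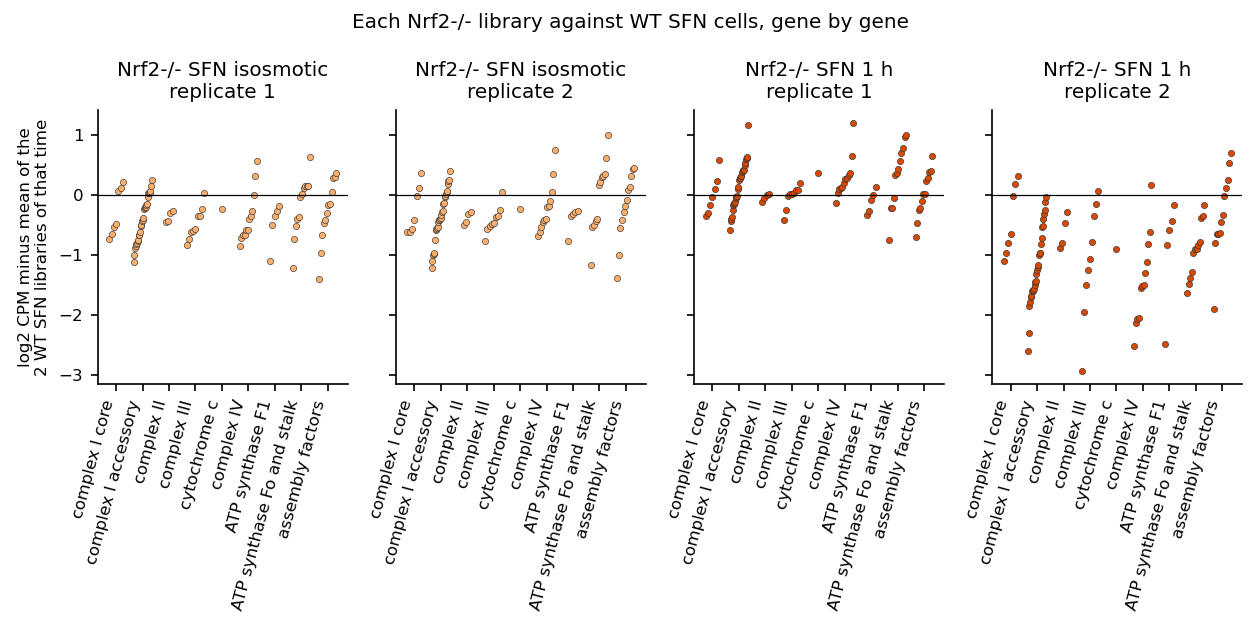
Log2 difference in CPM of each of the 79 subunits and 12 assembly factors (points, by role on the x axis) between 1 Nrf2-/- library and the mean of the 2 WT SFN libraries of the same time (y axis), 1 panel for each of the 4 Nrf2-/- libraries. The subunits' medians are -0.39, -0.36, 0.10 and -0.97 from left to right, so the 2 libraries at 1 h disagree in direction.

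Promoters are shown for the 7 assembly factors that fell at 6 h in both series and had a sequence. That of Atp5g2 is shown as 1 example of a gene that separated the genotypes. Of the members 8% lay below all WT libraries in this way, against 9.83% of all genes. The sequences are RefSeq's for GRCm38.p6, the 150 bases before the annotated start, read 5′ to 3′ on the gene's strand. RefSeq's start differs from the outer bound of the gene in the annotation used for the counts here: it lies 1305 bp inside it for Atp5g2, 1520 bp for Sdhaf1 and 933 bp for Sdhaf2, and within 14 bp of it for the other 5. Windows from 250 bases before to 50 after the start were available for 81 of the 103 members. On both strands of these windows 4 motifs were searched: GCGCATGCG of nuclear respiratory factor 1, CCGGAAG of ETS proteins such as Gabpa, TGACNNNGC as the core of the antioxidant response element that Nrf2 binds, and AAGATGGC of YY1. Matches are in capitals.
Ndufaf1 (chr2:119662835-119662984, minus strand): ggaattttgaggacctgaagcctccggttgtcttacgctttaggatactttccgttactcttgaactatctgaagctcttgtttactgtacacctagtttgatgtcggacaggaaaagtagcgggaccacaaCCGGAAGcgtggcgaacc
Sdhaf3 (chr6:6955868-6956017, plus strand): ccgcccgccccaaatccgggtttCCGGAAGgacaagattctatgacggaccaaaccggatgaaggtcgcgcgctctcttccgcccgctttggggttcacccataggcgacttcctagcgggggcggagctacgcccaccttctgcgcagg
Ndufaf4 (chr4:24897933-24898082, plus strand): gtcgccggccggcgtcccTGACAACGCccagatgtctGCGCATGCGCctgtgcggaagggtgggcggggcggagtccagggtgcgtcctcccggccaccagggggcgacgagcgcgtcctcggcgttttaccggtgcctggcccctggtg
Sdhaf2 (chr19:10525210-10525359, minus strand): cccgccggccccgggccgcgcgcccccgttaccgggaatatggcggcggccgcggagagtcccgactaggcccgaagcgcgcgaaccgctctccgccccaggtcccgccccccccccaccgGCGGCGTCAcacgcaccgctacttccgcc
Ndufaf7 (chr17:78936985-78937134, plus strand): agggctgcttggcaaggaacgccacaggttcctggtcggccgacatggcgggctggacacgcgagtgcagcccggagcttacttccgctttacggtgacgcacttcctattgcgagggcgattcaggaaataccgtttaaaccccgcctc
Ndufaf3 (chr9:108567437-108567586, minus strand): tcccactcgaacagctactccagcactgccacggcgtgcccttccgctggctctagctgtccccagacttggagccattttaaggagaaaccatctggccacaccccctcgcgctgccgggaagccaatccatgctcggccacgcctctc
Sdhaf1 (chr7:30322376-30322525, minus strand): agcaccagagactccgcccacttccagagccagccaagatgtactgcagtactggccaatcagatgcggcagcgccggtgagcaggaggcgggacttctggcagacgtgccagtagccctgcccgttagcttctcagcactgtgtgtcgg
Atp5g2 (chr15:102671048-102671197, minus strand): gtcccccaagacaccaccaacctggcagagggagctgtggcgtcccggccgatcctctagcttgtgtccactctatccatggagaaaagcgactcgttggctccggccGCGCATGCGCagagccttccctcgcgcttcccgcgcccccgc

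In these stretches Ndufaf1 holds the ETS letters 11 bases before its start and Sdhaf3 120 bases before. Ndufaf4 holds the letters of nuclear respiratory factor 1 on both strands, in 2 matches that overlap each other, 104 and 103 bases before its start, and those of the antioxidant response element at 123. Sdhaf2 holds the latter on the other strand, 20 bases before its start, Ndufaf3, Ndufaf7 and Sdhaf1 hold none of the 4, and Atp5g2 holds overlapping matches of nuclear respiratory factor 1 on both strands at 33 and 32. Over the members, 12.8% of 86 windows held the letters of nuclear respiratory factor 1 against 1.75% of 32851 windows of all genes, 25.6% the ETS letters against 8.86%, 12.8% the YY1 letters against 2.75%, and 15.1% the antioxidant response element core against 12.4%. Of the 7 assembly factors that fell at 6 h in both series and had a window, 4 held the ETS letters (Ndufaf1, Sdhaf1, Sdhaf2 and Sdhaf3), 3 the antioxidant response element core (Ndufaf3, Ndufaf4 and Sdhaf2), 1 that of nuclear respiratory factor 1 (Ndufaf4) and 0 that of YY1. Of the 13 windows of the 12 genes lower in Nrf2-/- cells in both comparisons, 1 held the antioxidant response element core (7.69%). A match describes letters only and says nothing of binding.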

How the data were processed

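RNA selection, strand and gene annotation are not given in the sources used here. The authors deposited 1 table of raw read counts per gene for each of the 16 libraries, made by alignment to mm10 and counting with featureCounts; the study's methods name Hisat2 as the aligner and the submitters' processing notes name Bowtie2, and versions are not given in the sources used here. The methods speak of 2 biological replicates per condition; p-values measure the spread between these libraries. Labels, not file names, gave the groups, since the replicate numbers of the isosmotic SFN files differ from the titles; 1 protocol label speaks of primary tubular cells where all others name mIMCD3. Lines with no gene name (2 and 3 in 2 libraries) held 0% of counts and were left out.

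Counts were tested as deposited with edgeR 4.0.16 (R 4.3.3): low-count filter, TMM scaling, 1 quasi-likelihood fit over all 8 conditions, Benjamini-Hochberg adjustment over all genes. CPM are scaled to the TMM-adjusted total and TPM use the union of exons in GENCODE M21, an annotation chosen here. The exons of 36 members overlap another gene. An exact permutation test of 2 against 2 libraries cannot give a two-sided p below 0.333, so none was used. The scripts were tested on simulated data. Named genes were a fixed set of central members plus, in each comparison, up to 5 members a direction with the largest log2 change among those with an adjusted p below 0.05, no overlap between the conditions and a mean of at least 50 counts. The members and lists were chosen with earlier results of these data known. Alternatives were DESeq2 1.42.0, its size factors, other count filters, only the libraries compared, libraries left out, the replicate number as a block, and each library's trend on length and GC content removed (values for 97.6% of genes tested).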

Additional observations from a re-analysis of the deposited data

How the results depend on the processing

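Numbers of members called are followed in brackets by the percentage of all genes called in the same fit. With only the libraries compared, stress at 1 h called 7 [21.7%] (DMSO), 4 [15.9%] (SFN) and 0 [0.045%] (Nrf2-/-), 6 h against isosmotic medium 38 [60.1%] and 39 [59.9%] (DMSO and SFN), 6 h against 1 h 65 [65.6%] and 47 [63.3%], SFN against DMSO 3 [7.06%] in isosmotic medium and 1 [4.95%] at 1 h, and Nrf2-/- against WT 44 [52.1%] in isosmotic medium and 0 [10.1%] at 1 h. Without the 2 Nrf2-/- libraries at 1 h these were 11 [22.1%] and 7 [17.5%] at 1 h, 28 [56.7%] and 48 [58.4%] at 6 h, 30 [53.5%] and 28 [53.9%] for 6 h against 1 h, 28 [14.5%] for SFN and 56 [46.4%] for the genotype in isosmotic medium, and 3 [3.96%] and 5 [3.03%] for the difference of the 6 h and 1 h effects between SFN and DMSO. With only the 12 WT libraries, a choice made after seeing the data, they were 9 [22.9%] and 7 [18.3%], 28 [57.6%] and 46 [59.7%], 31 [54.4%] and 28 [54.8%], 22 [15.2%] for SFN, and 2 [4.24%] and 3 [3.09%]. With no count filter, 6 h against 1 h in DMSO called 24 [24.2%], 1 h in SFN 10 [6.84%], 6 h in SFN 42 [27.7%], SFN in isosmotic medium 24 [3.16%], the genotype 51 [20.04%] and 47 [18.5%], 1 h in Nrf2-/- cells 18 [6.09%] and the difference of the 1 h effect between SFN and DMSO 1 [0.735%]. With at least 10 counts in every library, 1 h called 0 [5.36%, 4.38% and 2.42%] in all 3 series. DESeq2 called 1 [5.81%] for SFN in isosmotic medium. With the length and GC trend removed, 1 h called 33 [28.6%], 11 [21.4%] and 4 [15.2%] (DMSO, SFN, Nrf2-/-), 6 h 42 [55.8%] and 37 [56.1%], and 6 h against 1 h 18 [47.004%] and 25 [48.4%]. This removal moved the median over all genes to -0.27 and -0.25 at 6 h and to -0.20, -0.14 and -0.11 at 1 h, and with the median kept 6 h called 27 [49.5%] and 24 [50.7%] and 6 h against 1 h 12 [45.02%] and 17 [45.4%]. Leaving out 1 library gave 1 to 2 [4.45% to 5.94%], 1 to 2 [3.33% to 4.67%] and 0 to 68 [2.53% to 23.9%] at 1 h (DMSO, SFN, Nrf2-/-), 5 to 14 [31.7% to 34.2%] and 9 to 10 [33.0% to 34.8%] at 6 h, 1 to 4 [28.6% to 29.5%] and 3 to 5 [28.6% to 29.9%] for 6 h against 1 h, 0 to 0 for each SFN comparison and for both differences between SFN and DMSO [0.0047% to 1.42%], 8 to 16 [21.1% to 24.9%] and 6 to 74 [18.6% to 41.98%] for the genotype, and 0 to 34 [0.0377% to 9.75%] for the difference of the 1 h effect between genotypes. In 1 h DMSO cells 1 was called without isosmotic replicate 2 or without either 1 h replicate, in 6 h against 1 h DMSO cells 1 without 6 h replicate 1 and 2 without 1 h replicate 1, and at 1 h the genotype comparison called 6 without WT SFN replicate 2 and 7 without replicate 1. Of 480 alternatives for named genes, 405 kept direction and side of the threshold, 73 lost the threshold and 2 reversed, both Ndufaf4 in isosmotic Nrf2-/- cells (-0.038 and -0.14). The cause of these changes was not tested. Same-numbered replicates did not deviate together (correlations -0.0794 to 0.123, 1 of 28 pairs above 0.1), and with the replicate number as a block 14 [44.7%] and 13 [46.2%] members were called at 6 h, with no count of calls moved by over 1.5 times. Genes with few counts, such as Cox6b2, Cox8b and Sdhaf1, are limited by depth.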
